A study of Mus musculus with 24 samples.

Results

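Cytosolic ribosomal protein genes were described across 24 RNA-seq libraries of mouse hippocampus. The members are the rows of the deposited count table that carry an Rpl or Rps gene name, or the name Rplp0, Rplp1, Rplp2, Rpsa or Fau, and that reached a mean of 5 CPM (each count divided by its library total and put on 1 shared scale) over the 24 libraries. Rpl22 and Rpl22l1 were left out because Rpl22 carries the tag used for the pulldown. The rule gave 60 of the 51733 genes in the table, 36 of the large subunit and 24 of the small subunit. By name alone 87 genes met it, and the other 27 fell under the minimum. Just inside the minimum were Rpl29 at 5.05 CPM and Rpl27 at 5.13 CPM, and just outside it were Fau at 4.04 CPM and Rps7 at 3.87 CPM.

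Cytosolic ribosomes are built from ribosomal RNA and a fixed set of proteins, most of them needed once in every particle, so their genes are usually expressed in balance. Their mRNAs begin with a cytosine followed by a run of pyrimidines, the terminal oligopyrimidine (TOP) motif, through which mTOR signalling and the RNA-binding protein Larp1 control whether they are loaded on ribosomes. Phosphorylation of eIF2α acts by another route, through the supply of initiator tRNA to the ribosome. In neurons these mRNAs are made in the cell body and also occur in dendrites and axons.

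The study asked how loss of eIF2α phosphorylation in excitatory neurons changes the mRNAs bound by their ribosomes at rest and after learning. All mice were adult males of 2 to 3 months on a C57BL/6 background, and Cre in every group used here was driven by the CaMKIIα promoter, which is active in excitatory forebrain neurons. Conditional knock-in mice (cKI) had both eIF2α alleles changed to the A form, which cannot be phosphorylated at its regulatory serine, together with the floxed transgene fTg that Cre acts on. Controls were labelled as Cre-positive without the knock-in, and whether they carried fTg is not given in the sources used here. Mice were naive or were taken 1 h after fear conditioning, a pairing of a tone with a foot shock. The labels describe a weak and a strong protocol without saying which of them these mice received. The hippocampi of 1 mouse were pooled into a lysate, part of which was kept as input and part of which was immunoprecipitated (IP) with an antibody to the HA tag that RiboTag mice carry on Rpl22 after Cre. Each of the 8 groups held 3 libraries, and 12 mice gave 1 input and 1 IP each. The p-values therefore rest on the spread between mice within groups of 3. The main tests of IP against input and of their ratio took the input and the IP of a mouse as independent libraries.

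An IP library held between 30.6 and 43.5 M counts, an input library between 28.8 and 37.7 M. The tagged gene was enriched, with Rpl22 at 192 ± 37.2 CPM (SD, n = 12) in inputs and 840 ± 153 CPM (SD, n = 12) in IPs. Of 6 excitatory neuron markers all 6 were higher in IPs, while all 6 markers each of inhibitory neurons, astrocytes, oligodendrocytes, microglia and vessels were lower, with medians from -2.05 to -4.74 on the log2 scale. Sequencing lane moved with the groups. All cKI inputs were on lane 4 and all control IPs on lane 6. Naive cKI and naive control IPs shared no lane, nor did the cKI and control inputs at 1 h. Lane and genotype cannot be told apart in those comparisons. Lane also differed in part with training. Naive cKI IPs were all on lane 5, and those at 1 h on lanes 5 and 6. Naive control inputs were on lanes 4 and 5, and those at 1 h all on lane 5.

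The table gives each gene 1 row, and the members took 0.306 to 0.418% of the counts in inputs and 0.225 to 0.327% in IPs. Many ribosomal protein genes had very few counts in a tissue where every cell needs them. Rps27 had 19 counts over all 24 libraries, Rps2 had 320, Rps12 had 325 and Rpl36 had 598. How reads that fit several places were counted is not given in the sources used here. Named pseudogenes in RefSeq were a median of 4 for 20 coding genes under the minimum and a median of 2 for 57 members, with ranges of 0 to 24 and 0 to 23. The rows of the table that carry the name of a ribosomal protein pseudogene, 275 in number, summed to 2.85 CPM, against 2883 CPM for the members. The part of multiply fitting reads in the low values was not tested, and levels were compared between libraries for 1 gene and not between genes, since no transcript lengths were at hand. The lowest and highest member means were 5.03 CPM for Rpl29 and 254 CPM for Rps3.

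RefSeq lists 59 of the members as protein coding. The exception is Rps4l, a relative of Rps4x that RefSeq records as a transcribed pseudogene inside the span of the gene Tmtc1. Its reads cannot be told apart from those of Tmtc1 or of Rps4x, because neither the strand setting nor the handling of shared reads is given. The same caution holds for Rps27l and Rpl7l1, which resemble Rps27 and Rpl7.

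Start sites are shown because the TOP motif is the regulatory sequence these mRNAs are known for. RefSeq promoter windows (GRCm38.p6) matched 44 of the 60 members. A C at an annotated start followed by at least 4 more C or T stood in 9 of the 44 (20.5%), against 3.01% of 27025 genes in the same table. When the run could begin within 5 bases of the annotated start, 20 of 44 members (45.5%) and 21.2% of all genes had one. Of the 9 with the run at the start, 5 are printed, chosen after their values were seen to span the range of IP against input ratios. Each is written 5′ to 3′ on the strand of the gene with 10 bases before the start, and capitals mark the C at the start and its pyrimidine run.
Rps21, chr2:180257369-180257398, plus strand: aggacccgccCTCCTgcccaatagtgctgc
Rpl35a, chr16:33056472-33056501, plus strand: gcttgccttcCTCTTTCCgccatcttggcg
Rps6, chr4:86857348-86857377, minus strand: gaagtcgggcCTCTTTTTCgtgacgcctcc
Rpl28, chr7:4792955-4792984, plus strand: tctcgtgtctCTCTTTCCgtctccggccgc
Rpl15, chr14:18270967-18270996, minus strand: agaaagccttCTTCCTTTCCTCTggcggca
The motif CCGGAAG, a core to which ETS family factors bind, stood on either strand of the 300-base window in 18 of 44 members (40.9%) and 9.93% of all genes. AAGATGG, a core of the YY1 site, stood in 6 of 44 (13.6%) and 7.28% of all genes, counted without regard to overlap with other motifs. These matches are descriptions of the letters, not of binding.

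The levels of the members moved together from library to library. Across the 12 IPs, the log2 CPM of a member followed the mean of the other members with a median Pearson r of 0.86, and 58 of 60 were positive. Across the 12 inputs the median r was 0.88 and all 60 were positive. With the group means removed the medians were 0.84 and 0.90. The points share libraries and scaling factors, and these values are descriptions. The 2 members with a negative r in IPs were Rps4l at -0.50 and Rps15a at -0.11.

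In 2 libraries nearly all members were high. Naive control input replicate 2 had a member sum of 3809 CPM, while its group mates had 2914 and 2905 CPM and the other inputs 2681 to 3064 CPM. All 60 members were above the mean of their group mates there, and each was at its highest of 12 inputs, with a median log2 difference of 0.40. Naive cKI IP replicate 2 had a sum of 3525 CPM, with 2774 and 2916 CPM in its mates. There 58 of 60 members were above their mates and 55 were at their highest of 12 IPs, with a median of 0.33. The same 2 libraries were high in nuclear genes of oxidative phosphorylation (medians 0.36 and 0.34 over 69 genes), mitochondrial ribosomal proteins (0.27 and 0.22 over 73 genes) and other TOP mRNAs (0.27 and 0.27 over 18 genes). They were near their mates in mTOR pathway genes (-0.01 and -0.10 over 15 genes) and over the 11039 genes of at least 5 CPM (0.05 and 0.00). The libraries come from different mice. With each of them left out after seeing the data, the median r was 0.71 over 11 IPs and 0.56 over 11 inputs, and 58 of 60 members were positive in either fraction.

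**Figure D1:**
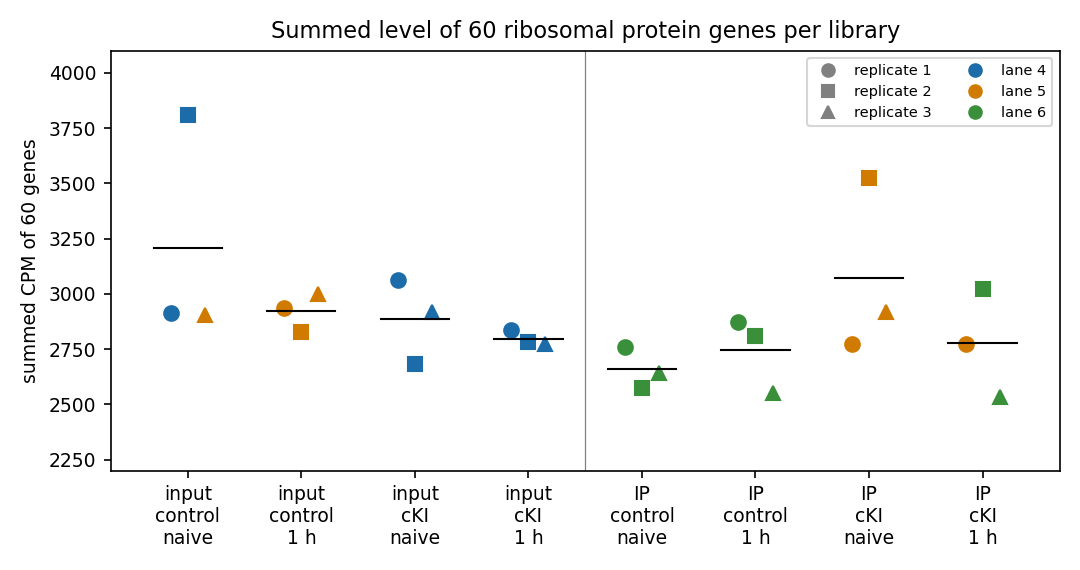
Summed CPM of the 60 genes (vertical axis, not starting at 0) in each of the 24 libraries by group, with the group mean as a line, the replicate number as the symbol and the sequencing lane as the colour. Naive control input replicate 2 at 3809 CPM and naive cKI IP replicate 2 at 3525 CPM lie above all others, which run from 2532 to 3064 CPM.

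Spread within a group followed those libraries. The median coefficient of variation of a member was 3.44% in cKI inputs at 1 h and 17.01% in naive control inputs. In naive cKI IPs it was 15.3%.

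Pulldown against input compared mRNA bound to tagged ribosomes with the mRNA of the whole lysate. The members split rather than moving as a block. Of the 60, 14 were higher and 25 lower in IPs by edgeR's quasi-likelihood test with Benjamini-Hochberg adjustment (65%), while 85.9% of the 17453 genes tested passed it, 42.8% higher and 43.1% lower. The median log2 fold change of the members was -0.03 and that of all genes -0.01. In bulk libraries, fewer cells of a type and less RNA per cell cannot be told apart, and here the input also holds RNA of cells without the tag.

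Small-subunit genes led the lower end. Rps29, a small zinc-binding protein of the small subunit, had 91.7, 102 and 135 CPM as the lowest, median and highest of the 12 inputs and 53.6, 57.9 and 71.9 CPM in the 12 IPs. The 2 fractions did not overlap, and its log2 fold change was -0.82 (SE 0.05, adjusted p 2.1e-12 by edgeR). Rps20, another small-subunit protein, ran from 33.7 to 41.5 CPM in inputs and from 19.3 to 29.4 CPM in IPs, also without overlap, at -0.70 (SE 0.05). Rps21, whose start is printed above, ran from 85.9 to 134 CPM in inputs and from 53.7 to 77.5 CPM in IPs, a change of -0.68 (SE 0.06). In all, 11 of 24 small-subunit members were lower and 2 were higher, with a median of -0.13.

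The large subunit held members at both ends, with 12 of 36 higher and 14 lower and a median of 0.02. Rpl30, which also binds its own pre-mRNA in yeast, had 58.4 to 81.0 CPM in inputs and 35.7 to 54.4 CPM in IPs, at -0.66 (SE 0.05). Rplp1, an acidic protein of the stalk that recruits elongation factors, had 49.9 to 69.1 CPM in inputs and 30.7 to 49.5 CPM in IPs, at -0.58 (SE 0.07). Rplp0, the base of that stalk, was lower by less, at -0.33 (SE 0.06).

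Relatives of core genes, 3 in number, were among those that rose. Rpl7l1, a relative of Rpl7, had 32.3, 34.1 and 38.3 CPM as the lowest, median and highest input and 40.7, 44.1 and 52.9 CPM in IPs, without overlap, at 0.38 (SE 0.03, adjusted p 5.1e-10 by edgeR). Rps27l had 4.67 to 6.80 CPM in inputs and 6.72 to 12.1 CPM in IPs, at 0.52 (SE 0.07). Rps4l had 9.69 to 24.0 CPM in inputs and 18.98 to 32.8 CPM in IPs, at 0.78 (SE 0.07), the largest rise among the members.

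Core large-subunit genes rose as well, the most being Rpl7a at 0.47 (SE 0.14). Rpl5 and Rpl11, which bind Mdm2 when they are free of ribosomes, were higher by 0.44 (SE 0.15) and 0.26 (SE 0.06). In naive cKI input replicate 3, Rpl7a and Rpl5 had 2.37 and 4.74 CPM, where their mates averaged 8.73 and 20.1 CPM. That library enters both fold changes. Rpl4, whose protein lines the exit tunnel, went from 192 to 254 CPM in inputs to 235 to 285 CPM in IPs, at 0.29 (SE 0.03). Rpl15 rose by 0.25 (SE 0.04) and Rpl41, the smallest ribosomal protein, by 0.39 (SE 0.06). The medians of inputs and IPs were 9.69 and 12.6 CPM for Rpl7a, and 7.25 and 9.71 CPM for Rpl41.

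Of the other members with a known separate role, Rpsa, also a laminin receptor, was lower by -0.21 (SE 0.05). Rpl38, needed for translation of Hox mRNAs in the embryo, was lower by -0.16 (SE 0.06), Rpl13a, a regulator of inflammatory mRNAs, by -0.24 (SE 0.06), the X-linked Rps4x by -0.32 (SE 0.05) and the X-linked Rpl36a by -0.20 (SE 0.07). Rps6, the substrate of S6 kinase, had 24.99 to 34.4 CPM in inputs and 23.2 to 36.6 CPM in IPs, with a log2 fold change of -0.02 (SE 0.05) that did not pass the test. Rps27a, made as a fusion with ubiquitin, did not pass at 0.07 (SE 0.06), nor did Rps3, also a DNA repair factor, at 0.05 (SE 0.06) or Rpl3, near the peptidyl transferase centre, at 0.03 (SE 0.05).

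Only 8 members had IPs that did not overlap with inputs, 7 of them lower (Rps29, Rps20, Rps21, Rpl30, Rplp1, Rpl37 and Rps19) and Rpl7l1 higher, whereas 47.8% of all genes tested had no overlap. Of the 9 members with a pyrimidine run at the annotated start 4 were lower and 1 was higher, with Rps21 and Rpl15 at the 2 ends. Of the 35 matched members without such a run 13 were lower and 12 higher. With the run allowed within 5 bases of the start, 6 of 20 members were lower and 5 higher. Of the 24 without it 11 were lower and 8 higher. Over all genes tested 43.1% were lower and 42.8% higher. Rpl35a changed by -0.41 (SE 0.08), and Rpl28 did not pass the test at -0.01 (SE 0.04). The runs of Rpl35a and Rpl28 are the same letters, and the part of the run in the ratios was not tested.

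**Figure D2:**
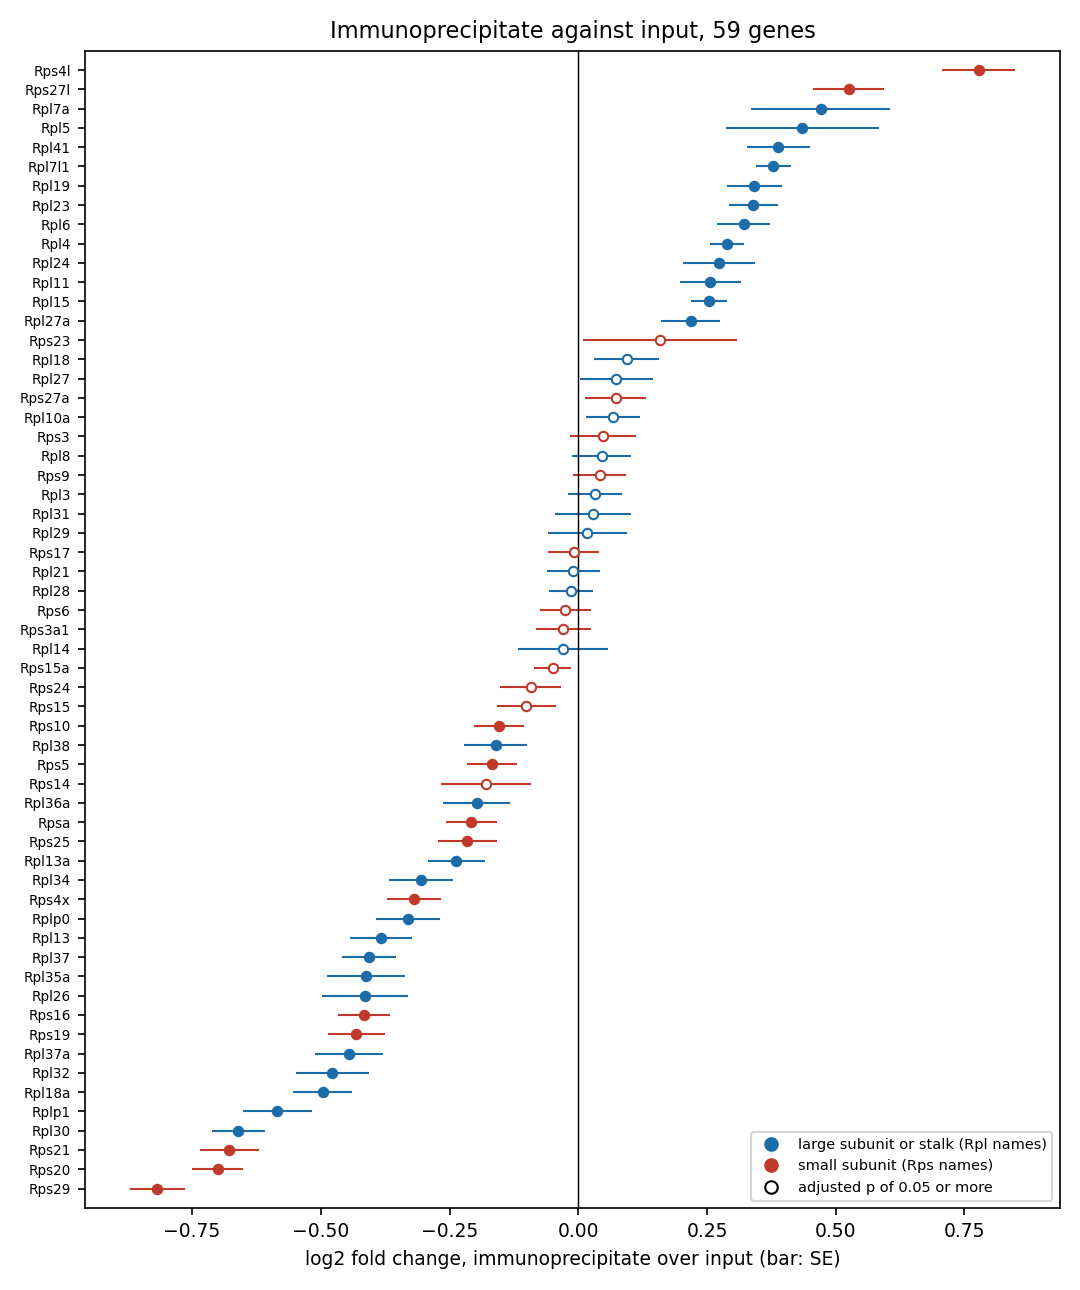
Log2 fold change of IP over input with its SE for 59 of the 60 genes, 12 libraries a side, ordered by value; blue marks large-subunit or stalk genes, red small-subunit genes, and open circles those that did not pass the adjusted threshold of 0.05. Values run from -0.82 for Rps29 to 0.78 for Rps4l, with more red among the negative values.

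Lane bears on this comparison, since 8 of 12 inputs were on lane 4 and all 12 IPs were on lanes 5 and 6. With lane as a covariate 15 members passed, 10 higher and 5 lower, and the median was 0.10. Lane was estimated only within the groups split between lanes. These were naive control inputs (lanes 4 and 5) and cKI IPs at 1 h (lanes 5 and 6). The lane 4 side of the naive control inputs includes replicate 2, the input of highest member level. In that fit 55.9% of all genes passed. Among the named genes the calls of Rplp1, Rplp0, Rpsa, Rpl38, Rpl13a, Rps4x, Rpl36a and Rpl5 were lost in that fit. Without the 2 libraries of highest member level, left out after seeing the data, 14 were higher and 32 lower. Over all genes in that fit 39.8% were higher and 45.6% lower.

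Related genes were described from fixed lists in the main fit, where 42.8% of all genes tested were higher in IPs and 43.1% lower. Of 18 other mRNAs known for TOP motifs 14 were higher in IPs and 1 was lower, with a median of 0.28. Eef2, the translocation factor, rose by 0.26 (SE 0.02), and Npm1, a nucleolar chaperone, by 0.52 (SE 0.04), while Tpt1 fell by 0.10 (SE 0.04). Of 36 ribosome biogenesis genes 34 were higher and 1 lower, with a median of 0.55, among them Ncl (nucleolin) at 0.69 (SE 0.03). Of 16 genes of mTOR and TOP control 12 were higher and 4 lower, with a median of 0.35. Larp1 rose by 0.76 (SE 0.02), and Eif4ebp1, a repressor that binds the cap-binding protein eIF4E, fell by 1.41 (SE 0.14). The level of Eif4ebp1 was low, with means of 1.69 CPM in control inputs and 0.72 CPM in control IPs. Of the 20 ribosomal protein genes under the CPM minimum that were tested, 16 were higher and 0 lower, with a median of 0.52.

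Genotype in naive IPs gave a tendency common to most members. The cKI values exceeded control for 58 of 60 members, with a median of 0.24 and a median of 0.00 for all genes. Only Rps4l passed the test, in the other direction, while 3.7% of the 15238 genes tested passed. Before adjustment 28 members had a p under 0.05 as higher and 1 as lower, where 22.3% of genes had such a p in either direction, and the DESeq2 Wald test called 5 members and 9.54% of genes.

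The member with the smallest p among those that were higher was Rps10, a small-subunit protein. It had 22.3, 20.8 and 19.8 CPM in naive control IPs and 24.5, 29.2 and 24.9 CPM in naive cKI IPs. The groups did not overlap, and the log2 fold change of 0.32 (SE 0.09) had an adjusted p of 0.058 by edgeR. Rps6 had 25.9, 24.0 and 23.2 CPM in controls and 26.9, 36.6 and 30.0 CPM in cKI, at 0.35 (SE 0.10, edgeR adjusted p 0.062). For Rps9 the control values were 57.1, 51.0 and 53.0 CPM and the cKI values 63.7, 74.7 and 66.0 CPM, at 0.34 (SE 0.10, edgeR adjusted p 0.070). In all 3 genes cKI replicate 2 was the highest library. These 3 were picked for their small p after values were seen.

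Without naive cKI IP replicate 2 the median over members was 0.10 with 54 positive, and 0 passed. Markers moved with the same groups. The 6 dentate granule cell markers summed to 731 to 979 CPM in naive cKI IPs and 250 to 730 CPM in naive control IPs, and the oligodendrocyte markers to 248 to 318 and 366 to 377 CPM. Their part in the result was not tested. With all libraries 1 of 18 other TOP mRNAs, 1 of 36 ribosome biogenesis genes and 1 of 16 mTOR and TOP control genes passed. Over all genes 3.7% passed, and 0.00656% with lane as a covariate. Of these related lists, Btf3 among the TOP mRNAs rose by 0.34 (SE 0.08) and Nop2, an rRNA methyltransferase, by 0.27 (SE 0.07). Deptor, an inhibitor of mTOR, fell by 0.85 (SE 0.10).

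At 1 h after conditioning no such tendency was seen in IPs. With 31 of 60 members positive the median was 0.01, and 0 passed by edgeR or by DESeq2, where 0.0591% of genes passed by edgeR and 0.308% by DESeq2. At an unadjusted p under 0.05 there was 1 member, and 5.56% of genes had such a p. Over both training states 57 of 60 members were positive with a median of 0.11, and 0 passed by edgeR, where 1.69% of genes did. At an unadjusted p under 0.05 there were 15 higher and 1 lower, where 18.5% of genes had such a p, and DESeq2 called 2 members and 5.65% of genes. Without naive cKI IP replicate 2 the median was 0.06, with 47 members positive and 13 negative. The granule cell markers were positive in 6 of 6 (median 0.51, 0 called) and the oligodendrocyte markers negative in 6 of 6 (median -0.30, 2 called). The smallest adjusted p by edgeR was 0.094, for Rps9 at 0.25 (SE 0.07).

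Rps4l went against the others. In naive control IPs it had 28.7, 29.9 and 32.8 CPM, and in naive cKI IPs 19.9, 18.98 and 22.7 CPM. The control IPs at 1 h had 22.2, 19.6 and 23.9 CPM and the cKI IPs at 1 h 20.5, 25.7 and 21.4 CPM, so that the 3 naive control libraries stood above the other 9. Naive cKI against naive control gave -0.57 (SE 0.11, adjusted p 0.020 by edgeR). The call was lost with lane as a covariate (-0.36, adjusted p 0.73 by edgeR). Lane was estimated there only within cKI IPs at 1 h, so that fit cannot settle the part of lane in naive IPs. The call was also lost without either of cKI replicates 1 and 2 or control replicates 2 and 3 (adjusted p 0.051 to 0.11 by edgeR).

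In inputs too the naive control group was the highest for Rps4l. Naive control inputs had 16.9, 24.0 and 18.7 CPM, and the other 9 inputs 9.69 to 15.5 CPM. Over both training states cKI inputs were lower by -0.45 (SE 0.11, adjusted p 0.049 by edgeR), the only member past the threshold, where 3.15% of 17232 genes passed. DESeq2 called 1 member and 5.49% of genes. That call was lost with no filter on low counts, with a lane term and in 10 of 12 fits without 1 library. In naive inputs alone the fold change was -0.70 (SE 0.15, edgeR adjusted p 0.055). In control mice the change at 1 h was -0.48 (SE 0.11, edgeR adjusted p 0.086) in IPs, all from lane 6, and -0.56 (SE 0.15, edgeR adjusted p 0.14) in inputs. Tmtc1, whose span holds Rps4l, did not pass in naive IPs at 0.09 (SE 0.10), and Far2, a neighbour picked with the area around Rps4l after seeing the data, was lower by -0.63 (SE 0.10, adjusted p 0.0095 by edgeR). Of the 5 genes taken from that area, only 1 passed in naive IPs, with 2 positive, 3 negative and a median of -0.02. In naive inputs 0 of the 5 passed, with 4 positive, 1 negative and a median of 0.08.

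**Figure D3:**
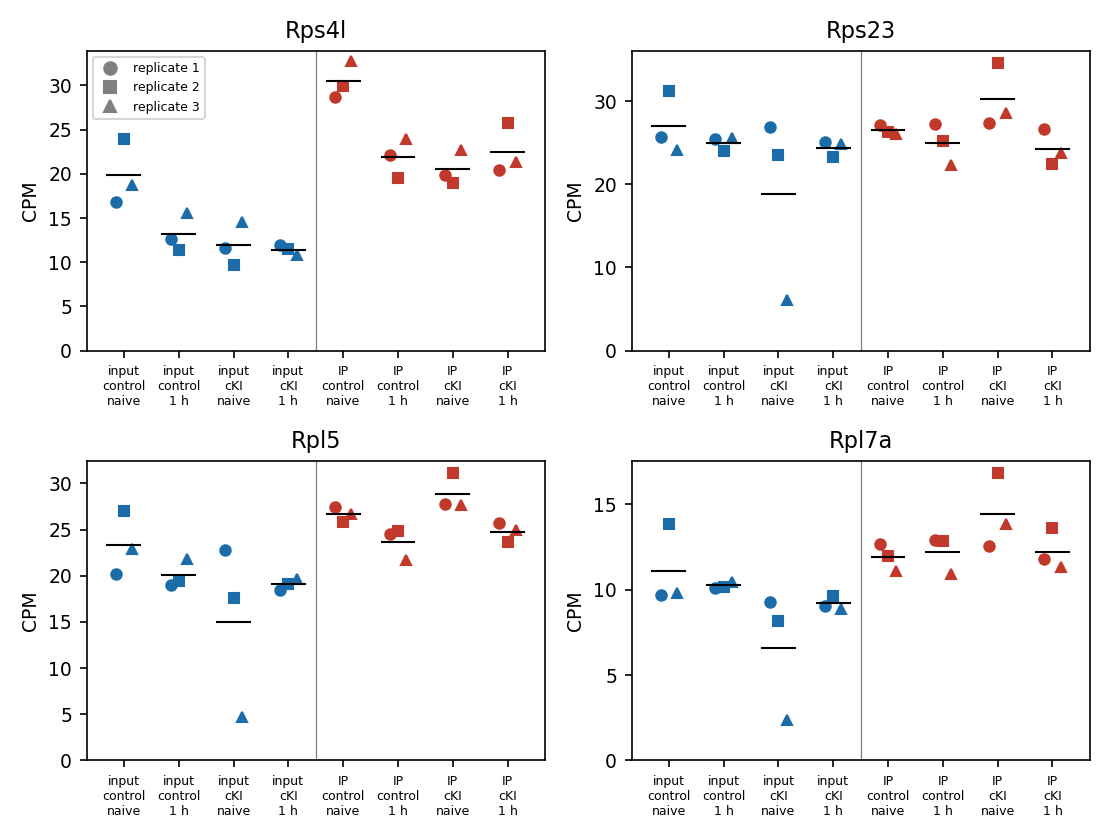
CPM of Rps4l, Rps23, Rpl5 and Rpl7a in each library by group (vertical axes from 0), with the group mean as a line, blue for inputs, red for IPs and the symbol for the replicate. Rps4l is highest in the 3 naive control libraries of each fraction, and Rps23, Rpl5 and Rpl7a drop to 6.07, 4.74 and 2.37 CPM in naive cKI input replicate 3.

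Most other members had small negative values for genotype in inputs. Over both training states 54 of 60 were negative with a median of -0.08, and 3 had an unadjusted p under 0.05, where 20.5% of genes did. Without naive control input replicate 2 the median was -0.02, with 43 negative. All 6 oligodendrocyte markers were lower in the same comparison, with a median of -0.31, and all 6 in naive inputs, with a median of -0.39. Their summed level was 3347 to 4103 CPM in cKI inputs and 3760 to 5373 CPM in control inputs, and its part in the result was not tested. In naive inputs 0 passed by edgeR, where 0.859% of genes did, with 4 at an unadjusted p under 0.05, against 17.6% of genes. DESeq2 called 2 members there and 2.97% of genes. The median there was -0.11, and 0.02 without naive control input replicate 2. At 1 h 0 passed by edgeR or DESeq2, where 0.267% of genes did by edgeR and 1.1% by DESeq2, with 1 member at an unadjusted p under 0.05, against 8.98% of genes, and a median of -0.05.

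A separate step was seen in 1 library. In naive cKI input replicate 3, Rps23, a decoding-site protein, had 6.07 CPM where its mates averaged 25.2. Rpl5 had 4.74 CPM against 20.1, and Rpl7a, a large-subunit protein whose introns host small nucleolar RNAs, had 2.37 CPM against 8.73. They were thus 4.16-, 4.25- and 3.69-fold lower. No other member was at least 2-fold low there, and 66 of 11039 genes of at least 5 CPM (0.598%) were. The IP of the same mouse had 28.6, 27.7 and 13.9 CPM for the 3 genes, each above the highest control IP.

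Training was compared 1 h after conditioning with naive mice of the same genotype. In cKI IPs and in control inputs the training states also differed in part by lane. In control IPs 48 of 60 members were positive with a median of 0.06, and 0 passed by edgeR, where 0.328% of genes did. In cKI IPs 59 of 60 were negative with a median of -0.17, and 0 passed, where 0.0459% of genes did. At an unadjusted p under 0.05 there were 2 higher and 2 lower members in control IPs and 9 lower in cKI IPs, where 10.3% and 12.8% of genes had such a p. DESeq2 called 1 and 0 members, and 1.9% and 1.02% of genes. Rps23 had the smallest p in cKI IPs. It had 27.3, 34.6 and 28.6 CPM in naive mice and 26.6, 22.5 and 23.8 CPM at 1 h, at -0.31 (SE 0.10, edgeR adjusted p 0.30). Without naive cKI IP replicate 2 the median in cKI IPs was -0.04, with 43 negative. The granule cell markers were negative in 6 of 6 in cKI IPs, with a median of -1.01 and 0 called, and their sum went from 731 to 979 CPM in naive mice to 262 to 723 CPM at 1 h. Their part in the result was not tested.

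In control inputs 56 members were negative with a median of -0.10. Without naive control input replicate 2 the sign turned, with 39 positive and a median of 0.02. The oligodendrocyte markers were negative in 6 of 6 there, 5 of them called, with a median of -0.43, and their sum was 4963 to 5373 CPM in naive and 3760 to 4313 CPM in conditioned controls. Their part in the result was not tested. In cKI inputs 51 members were negative with a median of -0.05. In the control and the cKI inputs 0 passed by edgeR, where 0.737% and 0.0174% of genes did. At an unadjusted p under 0.05 there were 5 and 1 members, where 11.7% and 5.27% of genes had such a p, and DESeq2 called 2 and 0 members and 1.97% and 0.158% of genes. The interaction, the change at 1 h in cKI minus that in control, was negative for 58 members in IPs with a median of -0.24, or -0.11 without naive cKI IP replicate 2. None of the 60 passed by edgeR, where 0.0131% of genes did, with 10 at an unadjusted p under 0.05, against 9.34% of genes. DESeq2 called 1 member and 0.592% of genes. The granule cell markers were negative in 6 of 6, with a median of -1.47 and 0 called, and their part was not tested. Rps4l had the smallest p, at 0.62 (SE 0.15, edgeR adjusted p 0.28). In inputs 46 were positive with a median of 0.05, but 48 were negative with a median of -0.08 without naive control input replicate 2. There 0 passed by edgeR or DESeq2 with all libraries, where 0.0348% of genes did by edgeR and 0.192% by DESeq2, with 4 at an unadjusted p under 0.05, against 4.82% of genes.

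The ratio of IP to input differed between genotypes by a positive value (cKI minus control) for 59 of 60 members, with a median of 0.23 and 0.02 for all genes. It passed for 0 members by edgeR or DESeq2, where 0.0229% of genes passed by edgeR and 0.299% by DESeq2, with 28 higher at an unadjusted p under 0.05, where 15.6% of genes had such a p in either direction. Rps10 had the smallest p, at 0.31 (SE 0.10, edgeR adjusted p 0.23). With both libraries of highest member level left out the median was 0.09, with 52 positive. The granule cell markers had positive values in 6 of 6, with a median of 0.45 and 0 called. One of the 2 is a cKI IP and the other a control input. The ratio at 1 h against naive was positive for 47 members with a median of 0.04, and 0 passed by edgeR or DESeq2, where 0.00573% of genes did by edgeR and 0.0344% by DESeq2, with 0 at an unadjusted p under 0.05, against 4.13% of genes. Contrasts within a fraction share libraries, so their tendencies are not separate observations.

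**Figure D4:**
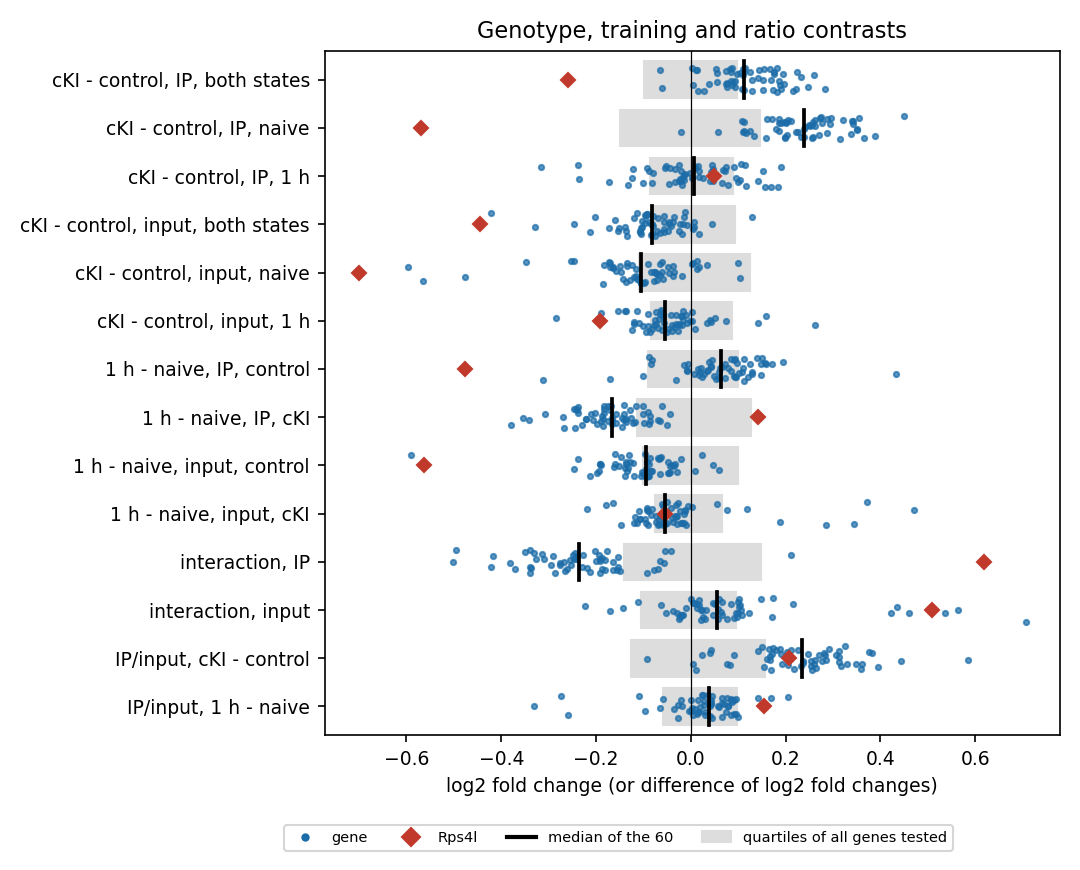
Log2 fold change of each of the 60 genes (points, Rps4l apart) in the genotype, training, interaction and IP to input ratio contrasts, with the member median as a black bar, Rps4l as a red diamond and the quartiles of all genes tested as a grey box. The median is 0.24 for genotype in naive IPs and 0.01 at 1 h, and Rps4l lies at -0.57 in the naive comparison.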

How the data were processed

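The authors deposited raw counts per gene for 24 libraries, each row a gene symbol with 1 transcript identifier. Cutadapt, Bowtie and DESeq2 1.26.039 appear, without roles, in the submitters' processing notes. Not given in the sources used here were the counting tool, genome build, strand setting and treatment of reads that fit several places. Libraries were made from poly(A) RNA with a directional kit, per the labels' protocols. Depth was 28.8 to 43.5 M counts per library.

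Counts were scaled by TMM and tested in R 4.3.3 with edgeR 4.0.16 (robust quasi-likelihood, filterByExpr, 1 mean per group), separately for 12 IPs, 12 inputs and all 24 libraries. Benjamini-Hochberg adjustment ran over all genes tested, with a threshold of 0.05, and all 60 members passed the filter. CPM values use TMM-scaled library sizes, except those at the 5 CPM minimum, which use plain totals. Alternatives used DESeq2 1.42.0, other scaling, no filter, lane, blocks and single libraries left out. Shares of genes called by DESeq2 are over genes with an adjusted p there. The procedure was tested on simulated counts. The labels tie each input to the IP of the same mouse. Deviations from group means of such pairs had r from -0.24 to 0.54 (median 0.14, 12 pairs), and the mouse as a block left 39 calls.

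Members and lists were chosen with earlier results of these data known. Genes named are the 5 largest changes without overlap in each direction for IP against input, members past the threshold or the 3 smallest p elsewhere, the 5 highest and lowest levels and members fixed by role. The text prints a selection, 1 member is not reported by name here, and the genes added after values were seen beyond those marked are Rps15a, Rps19, Rpl37, Rpl4, Rpl15, Rpl35a, Rpl28, Rpl41 and the related-list genes.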

Additional observations from a re-analysis of the deposited data

Results flagged for a closer look

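In groups of 6 libraries (1 fraction and genotype, both training states), a library was picked out where it lay far from the other 5 by Dixon's ratio, which chance does in about 1 of 20 groups. Among the 60 members this held for 41 in control inputs, 13 in cKI IPs, 6 in cKI inputs and 0 in control IPs, or 60 of 240 (25%). Over the 11039 genes of at least 5 CPM the shares were 20.4%, 7.64%, 8.52% and 4.26% in the same order, or 10.2% over the 4 groups. The members share libraries, so these are not separate events.

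Naive control input replicate 2 was far above the rest in the mean log2 CPM of the members, at 5.52 with 5.10 to 5.18 in the other control inputs. Among named genes it stood apart in Rps9 (74.8 CPM, others 52.7 to 57.4), Rps6 (34.4, others 26.1 to 28.5), Rps10 (35.5, others 25.8 to 26.9), Rps23 (31.3, others 24.0 to 25.7) and Rpl7a (13.9, others 9.71 to 10.4). Naive cKI IP replicate 2 stood apart in Rps27l (12.1 CPM, others 8.14 to 9.47) and Rps10 (29.2, others 23.01 to 24.9). Naive cKI input replicate 3 was low in Rps23 (6.07 CPM, others 23.3 to 26.9), Rpl5 (4.74, others 17.5 to 22.7) and Rpl7a (2.37, others 8.17 to 9.66). Naive cKI input replicate 1 was high in Rps10 (28.3 CPM, others 23.1 to 24.96).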

How the results depend on the processing

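With lane as a covariate, IP against input called 15 members with a median of 0.10. Genotype called 0 in naive IPs and 0 over inputs. The medians with lane were -0.21 for genotype over inputs, -0.25 for inputs at 1 h and 0.035 for training in control inputs. They were -0.082 for the input interaction and 0.37 for the ratio by genotype. The lane terms rest on naive control inputs, which include the high replicate 2, and on cKI IPs at 1 h. The DESeq2 Wald test called 2 members for genotype over IPs, 5 in naive IPs, 2 in naive inputs, 1 for training in control IPs, 2 in control inputs and 1 for the IP interaction. With no filter on low counts 2 members passed for genotype in naive IPs and 0 over inputs, where 2.46% and 2.05% of genes did. In that setting 1 member passed for training in control IPs.

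Within a fraction, replicate numbers did not pair the samples by deviation (36 pairs, r from -0.41 to 0.61, median -0.02). A replicate block gave 1 call for genotype over IPs, 4 in naive IPs and 0 over inputs. Over all genes the shares called there were 3.06%, 6.68% and 1.69%.

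Leaving out 1 library gave 0 to 2 calls for genotype over inputs, 0 to 2 in naive inputs (medians -0.17 to 0.019), 0 to 3 in naive IPs (medians 0.10 to 0.32), 0 to 1 for training in control IPs and 0 to 1 in control inputs. Medians ran from -0.24 to -0.040 for training in cKI IPs, -0.30 to -0.11 for the IP interaction and -0.077 to 0.11 for the input interaction. IP against input had 39 to 48 calls, and genotype over IPs had medians of 0.06 to 0.16. Without both libraries of highest member level the ratio by genotype had a median of 0.088. Other size factors, and TMM factors from non-members, left the counts within 1.5 times. The cause of these shifts was not tested. Depth limits the lowest members most, with 4164 counts for Rpl29 over all libraries.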
